A study of Mus musculus with 4 samples.

Results

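Inhibitory receptors are surface proteins that restrain an activated T cell. Genes of such receptors and of linked surface proteins, 10 in all, were examined, chosen by name from the 49490 genes in the deposited table. They are Pdcd1, Havcr2, Lag3, Tigit, Ctla4, Cd160, Entpd1, Cd101, Cd200 and Btla. Of these, Cd200 encodes a ligand and Entpd1 an enzyme, and the 10 are called receptors here for short. All 10 were found under their own symbols, and all 10 passed the filter on low values, as did 18378 genes in all. The lowest recovered count of any of them in any library was 264 reads.

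The RNA came from cultured, activated CD8+ T cells (the killer lymphocytes) of mouse spleens and lymph nodes. One group of 2 libraries is labelled Irf8 knockout, described in the series design as Irf8-/-. The other group of 2 libraries is labelled WT and described there as Irf8fl/fl, an allele flanked by recombination sites. The sources used here do not give the recombinase, the age of the mice, the stimulus or the time in culture. They also leave it unsaid whether replicate libraries stem from different mice or cultures, so each p below measures spread between libraries, which may be technical.

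Activated T cells put these receptors on their surface, and cells stimulated for long periods, as in tumours or chronic infection, keep several of them at once, a state called exhaustion. PD-1, CTLA-4, TIGIT, BTLA, LAG-3 and TIM-3 (the products of Pdcd1, Ctla4, Tigit, Btla, Lag3 and Havcr2) bind ligands on neighbouring cells and dampen signals of the T cell receptor or of costimulation. IRF8, the product of the targeted gene, is a transcription factor of immune cells that dendritic cells and other myeloid cells need to develop.

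The reads recovered from the normalized counts, summed over all genes, came to between 58899365 and 59724952 per library. Irf8 had 89508 and 90222 normalized counts in the libraries labelled knockout, against 6364 and 6081 in the libraries labelled WT. It was 14.4-fold higher in the group labelled knockout, which goes against the labels, so the groups are called by their labels throughout, and each direction given is labelled knockout over labelled WT. The cell type label was checked with Cd3e, at 54314 and 55319 in the libraries labelled knockout and 90985 and 86234 in those labelled WT, and Cd8a, at 31570 and 32517 against 39950 and 40359. Markers of plasmacytoid dendritic cells were abundant in 1 group: the 10 listed summed to 235470 and 236547 in the libraries labelled knockout and 11528 and 11526 in the libraries labelled WT. Of those 10 markers, 9 were called higher and 0 lower, beside 19.9% and 13.4% of all genes tested. Siglech, a surface receptor of these cells, was 418-fold higher.

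Of the 10 inhibitory receptor genes, 7 were lower and 3 higher in the group labelled knockout (adjusted p under 0.05), while 0 were lower and 4 higher once the libraries were scaled on T cell genes, as given below. Over all genes tested the same test called 33.4% in either direction, 13.4% lower and 19.9% higher. Among the 7901 tested genes as abundant as the least abundant of the 10 (a mean of at least 942), it called 45.7%, with 23.9% lower and 21.8% higher. The median log2 fold change of the 10 was -0.61, against 0.02 over all genes tested. The libraries of the groups did not overlap for any of the 10, as for 68.8% of all genes tested. With 2 libraries a group, the smallest two-sided p of an exact permutation test is 0.333, so the tests are those of the fit across all genes. The authors' deposited table also holds an adjusted p under 0.05 for each of the 10, and 25.6% of the genes with an adjusted p there passed.

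**Figure D1:**
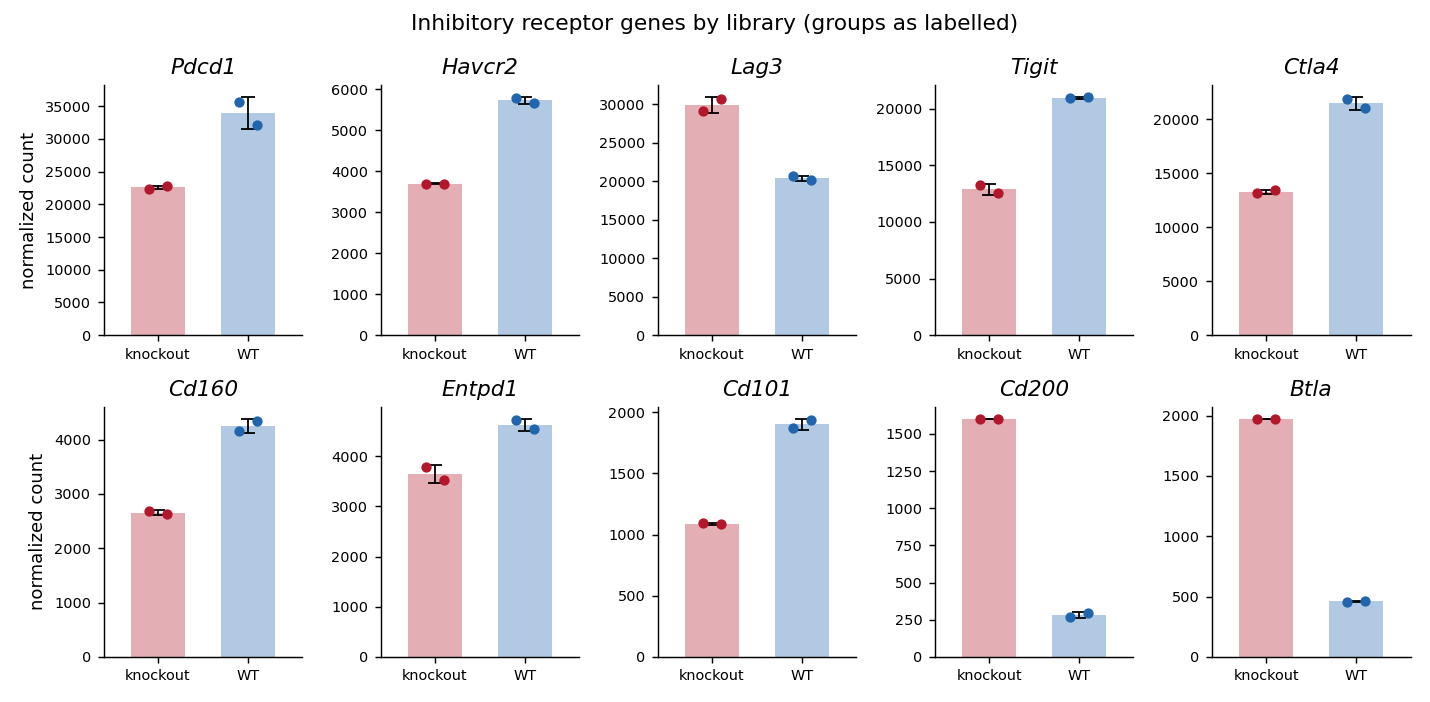
Normalized counts (vertical axes, each starting at 0) of the 10 inhibitory receptor genes in the 2 libraries labelled knockout (red) and the 2 labelled WT (blue). Points are libraries, bars are means and error bars are SDs. Lag3, Cd200 and Btla are higher in the libraries labelled knockout and the other 7 genes are lower under the deposited scaling, though none of the 7 is called lower relative to the CD3 and CD8 genes.

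The receptors of the CD28 and nectin-binding families were the most abundant of those that fell. Pdcd1, which encodes PD-1, had 22415 and 22786 normalized counts in the libraries labelled knockout, against 35714 and 32200 in the libraries labelled WT. The lowest library labelled WT lay above both libraries labelled knockout, and the spread within the group labelled WT was the wider one (22601 ± 262 and 33957 ± 2485, SD, n = 2 each). The level in the group labelled knockout was 66.6% of that in the group labelled WT, a log2 fold change of -0.59 (SE 0.05, adjusted p = 3.35e-04). Ctla4 encodes CTLA-4, which competes with CD28 for CD80 and CD86. It had 13174 and 13407 in the libraries labelled knockout, against 21906 and 21037 in the libraries labelled WT. The level was 61.9% of that in the group labelled WT, with a log2 fold change of -0.69 (SE 0.04, adjusted p = 3.57e-05). Tigit encodes a receptor for the poliovirus receptor (Pvr) and other nectin-like proteins. It had 13246 and 12523 in the libraries labelled knockout, against 20923 and 21032 in the libraries labelled WT. Its log2 fold change of -0.70 (SE 0.04, adjusted p = 4.58e-05) left 61.4% of the level in the group labelled WT.

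The less abundant receptors fell by like amounts. Havcr2 encodes TIM-3, a receptor of exhausted T cells that dendritic cells also carry. It had 3695 and 3677 in the libraries labelled knockout, against 5785 and 5662 in the libraries labelled WT (log2 fold change -0.63, SE 0.05, adjusted p = 1.35e-04). Cd160, whose product binds the same ligand as BTLA, had 2686 and 2629 against 4157 and 4348 in the libraries labelled WT (-0.68, SE 0.05, adjusted p = 2.07e-04). The libraries of each group lay close together for both genes. Cd101, which encodes an immunoglobulin-type surface protein found on T cells and myeloid cells, had the largest fall of the 10. It had 1093 and 1083 in the libraries labelled knockout, against 1869 and 1934 in the libraries labelled WT (log2 fold change -0.80, SE 0.07, adjusted p = 3.01e-04). That was 57.2% of the level in the group labelled WT.

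Entpd1 had the smallest fall of the 7. It encodes CD39, an enzyme at the cell surface that breaks down extracellular ATP, the first step towards the suppressive nucleoside adenosine. Its level was 3780 and 3526 in the libraries labelled knockout and 4715 and 4544 in the libraries labelled WT, or 78.9% of the level in the group labelled WT. The log2 fold change was -0.34 (SE 0.06, adjusted p = 0.00481). Without replicate 2 of the group labelled knockout the call was lost (log2 fold change -0.29, adjusted p = 0.0816), while without replicate 1 it was kept (-0.39, adjusted p = 0.0487). Of the other genes of adenosine metabolism and sensing, Adora2a, the adenosine receptor of T cells, fell by 0.43 on the log2 scale (0.21 higher relative to the CD3 and CD8 genes) to 6638 and 6772, against 9475 and 8589 in the libraries labelled WT. Ada, the enzyme that removes adenosine, rose 1.37-fold, but with median centring its log2 fold change was 0.16 and did not pass (adjusted p = 0.373). Nt5e, which encodes CD73 and completes the step from AMP to adenosine, did not pass (log2 fold change -0.34, adjusted p = 0.144), and neither did Adora2b (1.63, adjusted p = 0.0571). With median centring Nt5e was called lower (adjusted p = 0.0143), and of the 5 adenosine genes, Entpd1 included, 0 were higher and 3 lower. That scaling called 2389 of all 18378 genes tested higher and 7210 lower.

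Lag3 was the 1 abundant receptor that rose. Its product, LAG-3, binds class II antigen presentation molecules, and plasmacytoid dendritic cells carry it as well as T cells. Lag3 had 29161 and 30635 normalized counts in the libraries labelled knockout, against 20621 and 20164 in the libraries labelled WT. The groups were well apart, at 29898 ± 1042 and 20393 ± 323 (SD, n = 2 each), a 1.47-fold difference with a log2 fold change of 0.55 (SE 0.04, adjusted p = 9.74e-05). With each library centred on its median over all genes, the log2 fold change was 0.25, still higher. Next to Lag3 on chromosome 6 lies Cd4, with 8243 and 8153 in the libraries labelled knockout, against 131 and 127 in the libraries labelled WT. Cd4, the coreceptor of helper T cells, is also carried by plasmacytoid dendritic cells, and was 63.6-fold higher. Foxp3, which defines regulatory T cells, stayed near the floor, at 6.86 and 11.7 against 10.2 and 19.4, and 3 of the 4 markers of helper and regulatory T cells did not pass the test.

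Cd200 and Btla had the largest changes of the 10, and both rose. BTLA is an inhibitory receptor of T cells, B cells and dendritic cells, and CD200 is a surface protein that acts as the ligand of an inhibitory receptor, CD200R. Cd200 had 1599 and 1602 normalized counts in the libraries labelled knockout, against 269 and 298 in the libraries labelled WT. Btla had 1973 and 1968 in the libraries labelled knockout, against 457 and 464 in the libraries labelled WT. The groups lay far apart for both genes. The ratio of group means was 5.65 for Cd200 (log2 fold change 2.50, SE 0.10, adjusted p = 1.24e-05) and 4.28 for Btla (2.10, SE 0.08, adjusted p = 9.58e-06). Of all genes tested, 6.58% were called with a log2 fold change over 2. The 95% intervals were 2.25 to 2.74 for Cd200 and 1.90 to 2.29 for Btla, which overlap; the difference between the genes was not tested.

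Since levels of different genes can be compared only per length, normalized counts were divided by the kilobases of merged exons of each gene. On this scale Lag3 led in the libraries labelled knockout, at 14176 ± 494 per kilobase, beside Tigit at 14020 ± 556 (SD, n = 2 each), and the ranges of these 2 overlapped. Pdcd1 followed at 11710 ± 136 and Ctla4 at 5704 ± 70.9. In the libraries labelled WT the order began with Tigit at 22827 ± 84.2, Pdcd1 at 17594 ± 1288, Lag3 at 9669 ± 153 and Ctla4 at 9215 ± 264 (SD, n = 2 each). Lag3 thus stood at rank 1 in the group labelled knockout and rank 3 in the group labelled WT. Havcr2, Cd160 and Entpd1 held ranks 5 to 7 in both groups. The lowest 3 were Btla, Cd200 and Cd101 in the libraries labelled knockout, at 580, 482 and 327 per kilobase, and Cd101, Btla and Cd200 in the libraries labelled WT, at 571, 136 and 85.3. Apart from Lag3 and Tigit in the group labelled knockout, no neighbours in either order had overlapping ranges. The 10 genes together held 0.160% and 0.162% of all recovered reads in the group labelled knockout, against 0.194% and 0.183% in the group labelled WT. Lag3 made up 31.4% and 32.6% of their summed normalized count in the libraries labelled knockout, against 17.7% and 18.1% in the libraries labelled WT.

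The genes of the CD3 complex and of CD8, which mark the T cells themselves, were lower in the same libraries. Cd3d, Cd3e, Cd3g, Cd247, Cd8a and Cd8b1 all passed, with log2 fold changes between -0.81 and -0.33 and a median of -0.66. The 7 inhibitory receptor genes that fell lay between -0.80 and -0.34, with a median of -0.68. In bulk RNA, fewer cells of a type and less RNA per cell cannot be told apart. Each receptor was therefore also expressed as a percentage of the geometric mean of those 6 genes in the same library. Havcr2 stood at 12.1% and 11.9% in the libraries labelled knockout and 12.2% and 11.9% in those labelled WT. Pdcd1 stood at 73.7% and 73.8% against 75.1% and 67.7% in the libraries labelled WT. On this scale the groups overlapped for both genes. Ctla4 was at 43.3% and 43.4% against 46.1% and 44.2% in the libraries labelled WT, and Tigit at 43.5% and 40.6% against 44.0% and 44.2%. Cd160 was at 8.83% and 8.52% against 8.74% and 9.14%, with overlap. Cd101 was at 3.59% and 3.51% against 3.93% and 4.07%, and Entpd1, higher, at 12.4% and 11.4% against 9.91% and 9.55%. The groups did not overlap for Ctla4, Tigit, Cd101 or Entpd1. Nor did they for Lag3, at 95.9% and 99.2% against 43.4% and 42.4% in the libraries labelled WT, or for Cd200 and Btla. The share of all genes without overlap was not computed on this scale. As deposited, it was 68.8% of all genes tested.

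With each library centred on the CD3 and CD8 genes, 4 of the 10 receptors were called higher and 0 lower. The median log2 fold change over all genes is 0.65 under this scaling, against 0.02 as deposited, and it called 68.2% of all genes higher and 0.533% lower, so 4 of 10 is below the share of all genes. After this centring the log2 fold change between the groups was 1.19 for Lag3 (SE 0.03), 2.73 for Btla (SE 0.08) and 3.13 for Cd200 (SE 0.10). Entpd1 turned from lower to higher, with a log2 fold change of 0.29 (SE 0.06, adjusted p = 0.00468). Pdcd1 (0.05, adjusted p = 0.427), Havcr2 (less than 0.01 in size, adjusted p = 0.999), Cd160 (-0.04, adjusted p = 0.513), Ctla4 (-0.06, adjusted p = 0.204), Tigit (-0.07, adjusted p = 0.200) and Cd101 (-0.17, adjusted p = 0.0713) did not pass. Their 95% intervals ran from -0.34 (Cd101) to 0.17 (Pdcd1). The choice of T cell genes matters here, since Trac, a constant gene of the T cell receptor, had a log2 fold change of -0.01 under the deposited scaling, and Cd8a fell less than Cd3d (-0.33 and -0.81).

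**Figure D2:**
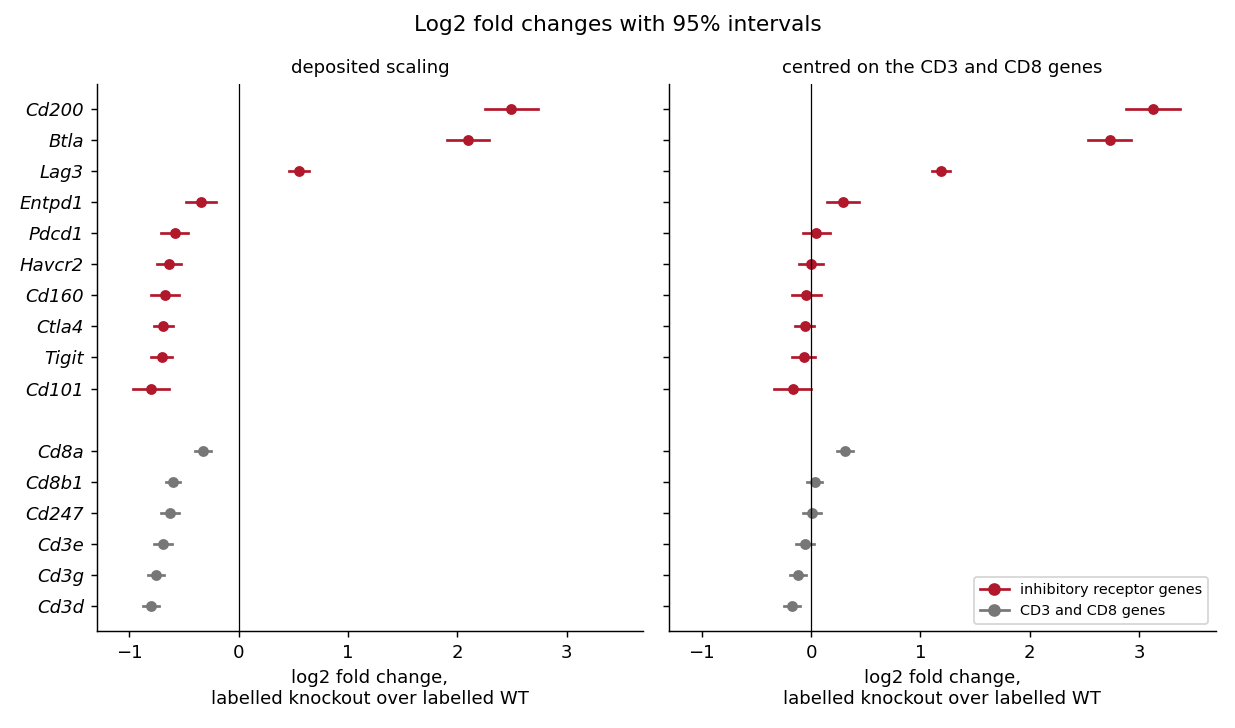
Log2 fold changes (horizontal axes) with 95% intervals for the 10 inhibitory receptor genes (red) and the 6 CD3 and CD8 genes (grey), under the deposited scaling on the left and after centring each library on the CD3 and CD8 genes on the right. The 7 receptors that fell lie among the CD3 and CD8 genes, while Lag3, Btla and Cd200 lie to the right of them in both panels.

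Other receptors with inhibitory function also went both ways. Of 14 listed, 13 were found under the listed symbol and tested. Of these 13, 7 rose and 6 fell, beside 19.9% and 13.4% of all genes tested, with a median of 0.50. Relative to the CD3 and CD8 genes 10 were higher and 0 lower, beside 68.2% and 0.533% of all genes tested. Those that fell were Cd96, a partner of TIGIT in binding Pvr, by 0.72 on the log2 scale, Cd5, a brake on T cell receptor signalling, by 0.71, Klrc1, which encodes NKG2A, by 0.66, Klrg1 by 0.41, Vsir, which encodes VISTA, by 0.33, and Lilrb4a by 0.18, and the sign of the last 3 turned relative to the CD3 and CD8 genes (0.23, 0.30 and 0.46). The largest rises were in receptors known from myeloid cells. Cd300a was 25.8-fold higher, at 3824 and 4011 against 169 and 135 in the libraries labelled WT. Sirpa, the receptor for CD47, was 24.6-fold higher, Lair1, a collagen receptor, 20.5-fold, and Pirb 12.8-fold. Reads of Pirb and Lilrb4a can be shared with near-identical relatives. The plasmacytoid dendritic cell markers rose in the same libraries, as given above, and the part of such cells in these values was not tested.

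Ligands and binding partners of the receptors showed a mixed picture. Of 14 listed, 12 were tested, 4 rose, 3 fell and 5 did not pass, with a median of 0.08. Of all genes tested, 19.9% rose and 13.4% fell. Relative to the CD3 and CD8 genes 11 were higher and 0 lower, beside 68.2% and 0.533% of all genes tested. Ceacam1, a partner of TIM-3, had 2834 and 2967 in the libraries labelled knockout, against 112 and 98.0 in the libraries labelled WT, and was 27.6-fold higher. Nectin2, a ligand of TIGIT, was higher too, at 174 and 236 against 4.07 and 7.15, and so few reads in the group labelled WT leave its fold uncertain. Cd200r1, the receptor for CD200, had 1370 and 1478 against 393 and 397 in the libraries labelled WT, a log2 fold change of 1.85. Ligand and receptor of this pair, Cd200 and Cd200r1, were thus both higher. Cd274, which encodes PD-L1, rose 1.19-fold, with 3085 and 3076 against 2717 and 2440 (adjusted p = 0.0299), and its log2 fold change was -0.04 with median centring. The other PD-1 ligand, Pdcd1lg2, fell by 0.73 on the log2 scale, at 723 and 803 against 1132 and 1413. Relative to the CD3 and CD8 genes its log2 fold change was -0.10 and did not pass (adjusted p = 0.526). Lgals9, which encodes galectin-9, fell by 0.31 and Lgals3, which encodes galectin-3, a binding partner of LAG-3, by 0.51, and both lay above 0 relative to the CD3 and CD8 genes (0.33 and 0.12). Fgl1, a LAG-3 ligand made by the liver, had 0 reads in every library, which allows up to 3 reads per library. H2-Ab1, a class II chain, had 69498 and 74401 against 5268 and 5333 in the libraries labelled WT. Of the shared partners, the CTLA-4 ligands Cd80 and Cd86 (log2 fold changes 0.09 and -0.14), Pvr (-0.07) and the ligand of BTLA and CD160, Tnfrsf14 (0.17), did not pass.

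Among 13 genes that act below the receptors, 2 rose, 6 fell and 5 did not pass, with a median of -0.13. Of all genes tested, 19.9% rose and 13.4% fell. Relative to the CD3 and CD8 genes 11 were higher and Sh2d1a alone lower, beside 68.2% and 0.533% of all genes tested. Ptpn6 encodes SHP-1, a phosphatase that several inhibitory receptors recruit, and was 1.55-fold higher, at 38129 and 39219 against 25433 and 24400 in the libraries labelled WT. Grb2, an adaptor, rose 1.13-fold, a log2 fold change of 0.17 that was -0.13 with median centring. Ptpn11, which encodes the related phosphatase SHP-2, did not pass (log2 fold change -0.13, adjusted p = 0.195), nor did Inpp5d, which encodes SHIP-1 (0.08, adjusted p = 0.242). Sh2d1a, the adaptor SAP of T and NK cells, fell by 0.86 on the log2 scale, Dok2, an adaptor below CD200R, by 0.58, Cblb, a ubiquitin ligase that limits T cell activation, by 0.45, Dgka by 0.38, Rasa1 by 0.37 and Dgkz by 0.21, all but Sh2d1a being above 0 relative to the CD3 and CD8 genes. Transcription factors linked to exhaustion fell in 10 of 17 and rose in 4, beside 13.4% and 19.9% of all genes tested, with a median of -0.21. Relative to the CD3 and CD8 genes 13 were higher and 0 lower, beside 68.2% and 0.533% of all genes tested. Id2 fell by 0.70, Tbx21, which encodes T-bet, by 0.56 and Tox, a driver of the exhausted state, by 0.45, while Id3 rose 4.43-fold, and relative to the CD3 and CD8 genes Tbx21 stood at 0.08 and Tox at 0.18. With median centring the counts moved the other way, to 1 higher and 12 lower for the signalling genes, 2 and 12 for the transcription factors and 3 and 6 for the ligands. Of all 18378 genes tested, median centring called 2389 higher and 7210 lower.

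**Figure D3:**
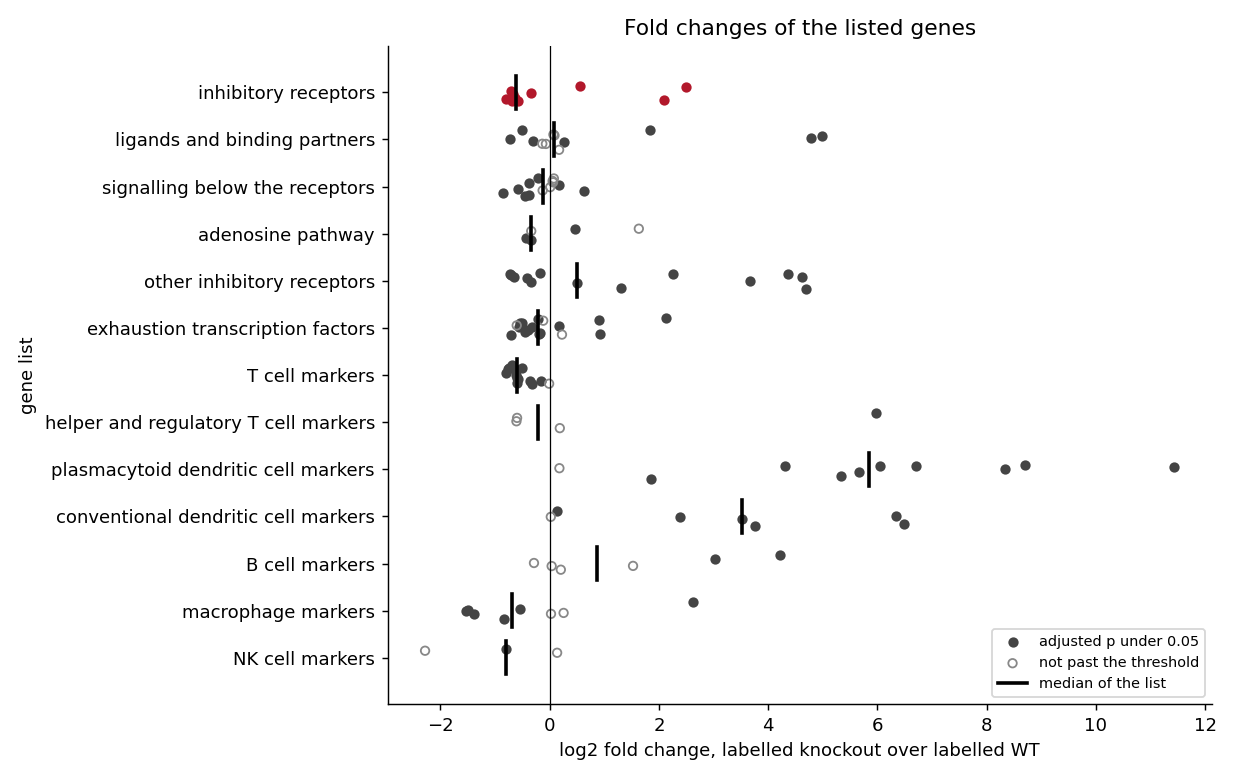
Log2 fold changes (horizontal axis) of the tested genes of each list (rows). Filled points passed an adjusted p of 0.05, open points did not, and the black bar is the median of the list, which is -0.61 for the inhibitory receptors (red) and 5.86 for the plasmacytoid dendritic cell markers, or 0.024 and 6.49 relative to the CD3 and CD8 genes.

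Markers of other cells were read as whole lists. As deposited, 19.9% of all genes tested were called higher and 13.4% lower. The 7 conventional dendritic cell markers, of which 6 rose and 0 fell, summed to 97578 and 102414 in the libraries labelled knockout and 19042 and 18688 in the libraries labelled WT. H2-Ab1, the class II chain whose values are given above, made up most of the sum in the libraries labelled knockout. In the libraries labelled WT it was the smaller part. The 8 macrophage markers, of which 1 rose and 5 fell (3 and 2 relative to the CD3 and CD8 genes), summed to 21457 and 21182 against 16284 and 17842, and Cd68 alone, at 11390 and 10918 against 1687 and 1947, rose. The 7 B cell markers, of which 2 rose and 0 fell, summed to 1298 and 1310 against 312 and 278, and the defining markers Ms4a1 and Pax5 had at most 18.4 in any library. The 3 NK cell markers, of which 0 rose and 1 fell, summed to 1181 and 1147 against 1943 and 2097. Relative to the CD3 and CD8 genes, 7 conventional dendritic cell markers were higher and 0 lower. For B cell markers these counts were 3 and 0, and for NK cell markers 0 and 0. No listed marker was at 0 in all 4 libraries. The 14 T cell markers summed to 597040 and 602227 against 806311 and 809381, with 13 lower and 0 higher, or 3 lower and 5 higher relative to the CD3 and CD8 genes. Centring on those genes called 0.533% of all genes tested lower and 68.2% higher. The part of these cells in the receptor values was not tested.

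Btla and Cd200, the genes with the largest rises, lie near each other on chromosome 16. In GENCODE M21 (GRCm38, the same assembly as mm10), Btla spans chr16:45224315-45257670 on the plus strand and Cd200 chr16:45382135-45409053 on the minus strand, and their starts are 185 kb apart. Of the protein-coding genes with a start within 250 kb of either, those besides each other that passed the filter were Slc35a5, Atg3 and Gcsam, and each was called higher. Gcsam, a signalling protein of germinal centre B cells, had 286 and 382 in the libraries labelled knockout, against 115 and 83.7 in the libraries labelled WT, a log2 fold change of 1.74 (adjusted p = 0.00222). Slc35a5, a nucleotide sugar transporter, rose by 0.53 and Atg3, an enzyme of autophagy, by 0.27. With median centring Slc35a5 stood at 0.23 and Atg3 at -0.03, and neither passed. The values of Slc35a5, Atg3 and Gcsam lay below the 95% interval of Btla, though that of Gcsam, 1.16 to 2.32, overlapped it. Of all genes tested, 19.9% were called higher. Tigit lies on the same chromosome, at chr16:43648867-43664146, and its 1 tested neighbour, Ccdc191, did not pass (log2 fold change 0.11).

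**Figure D4:**
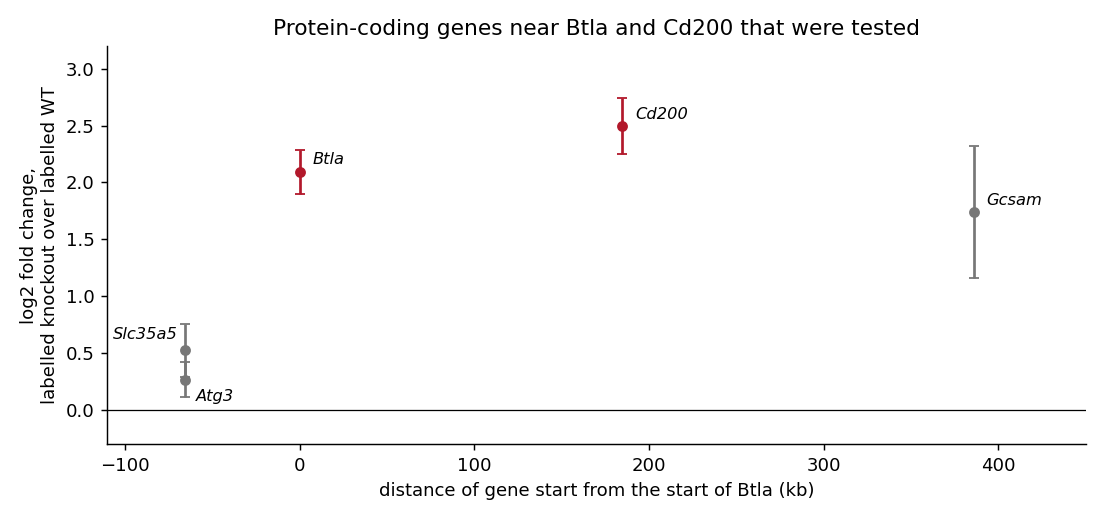
Log2 fold changes with 95% intervals (vertical axis) of the tested protein-coding genes near Btla and Cd200, by the distance of each gene's start from the start of Btla in kilobases (horizontal axis). Btla and Cd200 (red), 185 kb apart, stand at 2.10 and 2.50, and Slc35a5 and Atg3 (grey), on the other side of Btla, at 0.53 and 0.27. Gcsam (grey), beyond Cd200, stands at 1.74.

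The promoters of Btla and Cd200 are shown because these 2 genes moved together, and that of Pdcd1 because it was the only one of those searched that held a motif of the IRF family. The sequences are RefSeq's (GRCm38.p6), from 250 bases before to 50 bases after the annotated start, in the direction of transcription. The Btla promoter is chr16:45224087-45224386, plus strand, that of Cd200 chr16:45409004-45409303, minus strand, and that of Pdcd1 chr1:94052504-94052803, minus strand. Capitals mark the motif match.
Btla: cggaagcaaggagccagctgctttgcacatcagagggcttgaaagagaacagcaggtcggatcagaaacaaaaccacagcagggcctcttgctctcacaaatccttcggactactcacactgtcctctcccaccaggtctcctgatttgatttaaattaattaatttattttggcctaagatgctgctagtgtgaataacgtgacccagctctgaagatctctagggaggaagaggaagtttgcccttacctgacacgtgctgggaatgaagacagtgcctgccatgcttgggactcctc
Cd200: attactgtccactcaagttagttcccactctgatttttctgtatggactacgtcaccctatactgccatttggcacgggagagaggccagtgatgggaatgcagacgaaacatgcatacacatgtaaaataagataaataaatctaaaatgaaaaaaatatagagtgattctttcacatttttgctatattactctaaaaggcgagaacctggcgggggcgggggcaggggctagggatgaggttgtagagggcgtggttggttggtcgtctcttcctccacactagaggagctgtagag
Pdcd1: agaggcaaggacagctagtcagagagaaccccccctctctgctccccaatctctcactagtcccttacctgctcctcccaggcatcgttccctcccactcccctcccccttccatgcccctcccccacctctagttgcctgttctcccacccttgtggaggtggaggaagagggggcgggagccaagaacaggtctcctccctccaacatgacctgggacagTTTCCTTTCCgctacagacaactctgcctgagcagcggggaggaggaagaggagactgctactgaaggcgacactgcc
Both strands were searched for the core of the interferon-stimulated response element, spelled GAAA, any 2 bases, GAAA, and for the composite element of ETS and IRF factors, spelled GGAA, any 2 bases, GAAA. The 2 spellings differ in their second letter, so no single run matches both, though runs can overlap. Promoters of 9 of the 10 genes, 11 windows in all, were in the table, and the exception was Lag3. The response element was in 0 of these windows and in 3.44% of 32851 mouse promoter windows of the same length. The composite element was in 1, that of Pdcd1, on the opposite strand as TTTCCTTTCC from 28 to 19 bases before the start, and in 2.72% of all windows. A match of letters is a description and does not show that a factor binds there.

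The chromosomal neighbours of the other receptors were read the same way, over protein-coding genes with a start within 250 kb. Ctla4 lies between its relatives Cd28 and Icos, the genes of costimulatory receptors, and both fell, by 0.55 and 0.69 on the log2 scale, beside -0.69 for Ctla4 (Cd28 was at 0.09 relative to the CD3 and CD8 genes). Around Lag3, 27 genes were tested, of which 11 rose and 5 fell, beside 19.9% and 13.4% of all genes tested. With median centring 8 of the 27 were higher and 10 lower, beside 2389 and 7210 of all 18378 genes tested. Relative to the CD3 and CD8 genes 23 were higher and 0 lower, beside 68.2% and 0.533% of all genes tested. The 11 that rose included Ptms, which begins 8.40 kb away and rose by 0.85, and Ptpn6, 173 kb away. Cd4, given above, had the largest rise of them, followed by P3h3 (3.58) and Gpr162 (3.42), 54.0 and 47.7 kb away. P3h3 had 159 and 129 against 13.2 and 9.19 in the libraries labelled WT, and Gpr162 had 1269 and 1253 against 152 and 89.9. Near Havcr2, Fam71b fell by 0.64 and 3 others did not pass. Near Cd101, Ttf2 and Ptgfrn fell, by 0.33 and 1.05, and Ttf2 was at 0.30 relative to the CD3 and CD8 genes. Near Cd160, 3 of 14 tested genes rose and 0 fell, but 2 were higher and 6 lower with median centring. Near Entpd1, Cc2d2b and Ccnj rose and 3 others did not pass, and near Pdcd1, Gal3st2, at 20.6 and 44.8 against 4.07 and 6.13, rose and 3 others did not pass.

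Some annotated genes overlap the receptors, and the sources used here do not give the use of strand in the authors' counting, so shared reads cannot be told apart. Rpl18-ps1, a pseudogene of a ribosomal protein within the annotated span of Ctla4, had 2283 and 2232 in the libraries labelled knockout, against 3397 and 3690 in those labelled WT. Pdzk1, whose start overlaps that of Cd160 by 68 bases, had at most 17.3 in any library. Within Entpd1, the pseudogene Gm8783 had at most 118 and Gm16027 at most 1.96.

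The genes whose profile over the 4 libraries was nearest to that of Cd200, which had the largest rise of the members, were Maged1, Palm and Sgk3. Likeness was the root mean square distance of log2 values centred on each gene's mean, over 10966 named genes with a mean of at least 100, and came to 0.03, 0.04 and 0.04. Nearest to Cd101, which had the largest fall, were Lime1, an adaptor of lymphocytes, Gzmb, the protease granzyme B, and Cd3d, at distances of 0.01, 0.01 and 0.02. Lime1 had 5257 and 5253 in the libraries labelled knockout, against 9097 and 9462 in those labelled WT. With 4 libraries in 2 groups, such a likeness says little more than that the fold changes were close.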

How the data were processed

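Polyadenylated RNA of 4 libraries was compared, 2 labelled Irf8 knockout and 2 labelled WT, grouped by their titles. The submitters' processing notes name HISAT2 2.2.1, Trim Galore 0.4.4, DESeq2, StringTie 2.1.4 and the mm10 build; the sources used here do not give settings, annotation or strand. The authors deposited a signal, normalized counts with decimals, per the file headers. Their deposited table also holds a log2 fold change (WT over knockout), its error, a Wald score and p-values, raw and adjusted. Each column was whole multiples of 1 step within 0.01 reads for 100.0% of values, so reads were recovered; edgeR on these called 6343 genes. Of the genes, 22331 were at 0 throughout, and 24 names had become dates.

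Limma 3.58.1 (R 4.3.3; trend, robust variance, no covariate) was fitted to log2(normalized count + 1) for genes at 10 or more in at least 2 libraries. Such fold changes understate those of low genes. Two-sided p-values were Benjamini-Hochberg adjusted over all genes tested and called under 0.05. A fold is the ratio of the group means. A floor of 3 reads per library applies to counts of 0 at a 95% level, for counting error only. Alternatives were median centring, centring on 6 CD3 and CD8 genes, a pseudocount of 0.1 or 10, a minimum of 50 or none, no robust variance, leaving out each library, a replicate block, and edgeR 4.0.16 and DESeq2 1.42.0 on recovered reads. The 10 genes, the other lists and the tests were chosen with earlier results of these data known. The text names the 10, Irf8, genes of the lists, neighbours within 250 kb, and the 3 genes nearest in profile to the largest rise and fall. Gene models came from GENCODE M21 by exact symbol. Protein sequences were not used here.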

Additional observations from a re-analysis of the deposited data

How the results depend on the processing

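Over 14 alternatives, 146 of 154 values for the 10 receptor genes and Irf8 kept their direction and their side of the threshold. Centring on the CD3 and CD8 genes called 4 of the 10 (4 higher, 0 lower). It turned Pdcd1 to 0.049, Entpd1 to 0.29 and the median of the 10 from -0.61 to 0.024, and ended the calls of Havcr2, Tigit, Ctla4, Cd160 and Cd101; the changed scaling is the only difference from the values reported. Entpd1 also lost its call without knockout replicate 2. In the other alternatives, all 10 were called in their reported directions. Lag3 ranged from 0.25 (median centring) to 1.19. Over all genes, 6131 were called (3662 higher, 2469 lower). Median centring gave 9599 (2389 higher, 7210 lower), with -0.28 in place of 0.02 as the median of all genes, and 24.9% of calls higher in place of 59.7%. Centring on the CD3 and CD8 genes gave 12629 (12531 higher, 98 lower; 99.2% higher). Leaving out 1 library gave 1939 to 6896 calls, 1309 to 4137 higher and 630 to 2759 lower, with at most 2052 without a library labelled knockout. The lone library left was assumed to vary like the other group, and the cause of the fall in calls was not tested. A replicate block left all 10 calls (Entpd1 adjusted p = 0.00744); same-numbered libraries shared only a number (r = 0.02 across genes between their deviations). At this depth the receptors had at least 264 reads each per library.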
